A study of Arabidopsis thaliana with 18 samples.

Results

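The amount of RNA held on chromatin was set against the density of transcribing polymerase, gene by gene, in wild type (Col-0) Arabidopsis seedlings 14 days old. Polymerase density came from plant native elongating transcript sequencing (pNET-seq), which maps the 3' ends of RNA held by RNA polymerase II (Pol II). Here Pol II was pulled down with an antibody against the Ser2P form of its tail. Chromatin-bound RNA sequencing (CB-RNA-seq) measured RNA recovered from washed chromatin, depleted of poly(A) RNA and ribosomal RNA. Each assay had 2 Col-0 libraries. The deposited tables give 1 pooled value per gene, so no spread between libraries can be shown and no p-value is given. The same pair of assays was also run on seedlings labelled xrn3, an insertion line of the exoribonuclease gene XRN3, and 3 libraries of total RNA came from Col-0 seedlings treated with DMSO, the solvent control of a drug experiment.

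Of the 18010 nuclear genes listed with a 3' end pause in Col-0, 13938 genes (77.4%) had an intron counted in CB-RNA-seq, at least 20 gene body reads and at least 20 exonic reads next to their splice sites. These are the genes described here. Of the others, 2269 genes had no listed intron, 1483 had introns that were left uncounted because of low expression, 177 had too few gene body reads and 143 too few exonic reads. Genes just inside the first limit, with 20 to 24 gene body reads, had a median of 22.7 exonic reads per splice site, and those just outside it, with 15 to 19 reads, a median of 20.5. At the second limit the medians were 10.5 reads per splice site for 67 genes just inside and 8 for 56 genes just outside. The genes described held 10615278 gene body reads, 2321298 peak window reads, 26633585 exonic reads and 6652821 intronic reads, with medians of 222, 110, 722 and 233 reads per gene.

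Every transcribing Pol II carries 1 growing RNA, so a gene body crowded with polymerase is a site where much RNA is being made. RNA stays in the chromatin fraction while it is being made, while its introns are being removed and until it is cleaved and let go, and finished transcripts can remain there as well. Near the polyadenylation site (PAS) Pol II slows down before it leaves the gene, which gives a peak of pNET-seq reads just downstream. In Arabidopsis most introns are removed while the RNA is still on chromatin.

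Polymerase density and chromatin-bound RNA rose together across genes, but loosely. Gene body density, the pNET-seq reads per kb from the start site to a point upstream of the PAS, ran from 3.51 to 44516 reads per kb with a median of 94.9. The exonic level, the mean number of exonic CB-RNA-seq reads per splice site over the introns of a gene, ran from 2.93 to 20654 with a median of 73.5. The Spearman correlation between both was 0.416 over 13938 genes. Genes were sorted into 5 equal parts, called quintiles. Genes in the lowest quintile of gene body density had a median exonic level of 43.2 reads per splice site, and genes in the highest quintile a median of 157. The lowest and the highest quintile of density were thus separated by less RNA than by polymerase, since the lowest quintile ended at 41.4 reads per kb and the highest began at 297. A least squares line through the log2 values had a slope of 0.38 and took up 23.1% of the variance of the log2 exonic level. On this line, doubling the polymerase density went with far less than a doubling of exonic reads. The slope depends on the kind of line, as a reduced major axis line had one of 0.80. These correlations are across genes of the same pooled libraries, and genes are not independent replicates.

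The gap of a gene is the log2 of its exonic level over the level that the least squares line gives for its polymerase density. A gap of 1 means that the gene had 2 times the chromatin-bound RNA expected from its polymerase, and a gap of -1 that it fell short by 2-fold. The expected level depends on the slope. A steeper line would lower the gap of genes with dense polymerase and raise that of genes with sparse polymerase. The gap had an SD of 1.29 over genes and ran from -4.92 to 5.66. At least 2-fold above the line were 3048 of 13938 genes (21.9%) and at least 2-fold below it 3082 (22.1%), while 7808 genes (56.0%) lay within 2-fold. At least 4-fold above were 775 genes (5.56%) and at least 4-fold below 915 (6.56%). A rough counting error of the gap had a median of 0.203 and was above 0.5 for 162 genes. It takes the exonic level as if it were 1 count and gives gene body reads full weight in place of the slope. It is thus not the exact standard error of the gap. This error and the intervals given for read counts and shares cover counting error only.

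**Figure D1:**
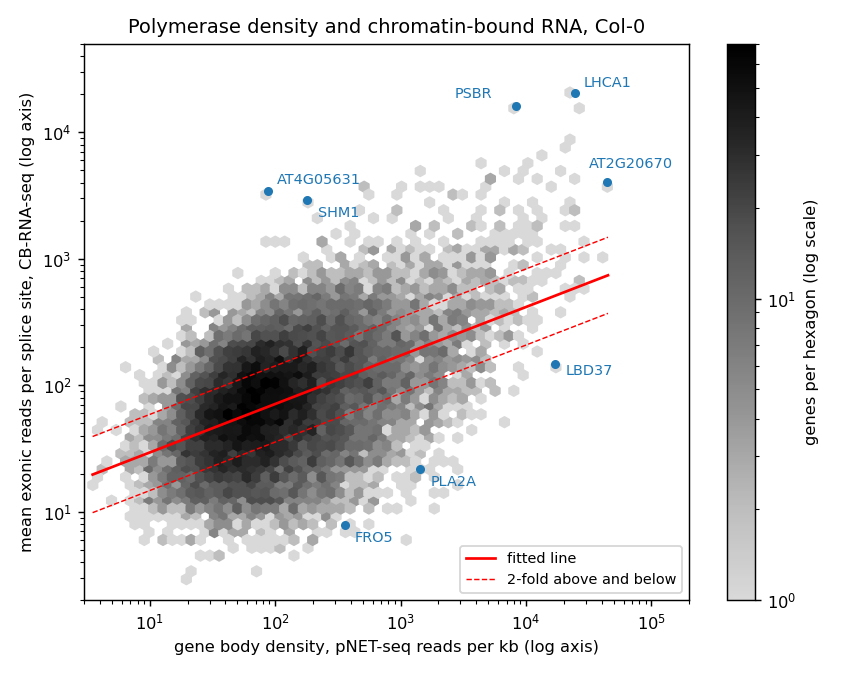
Gene body density in pNET-seq reads per kb against the mean exonic reads per splice site in CB-RNA-seq for 13938 genes, both on log axes, with the number of genes per hexagon in grey. The solid red line has a slope of 0.38, the dashed lines mark 2-fold above and below it, and the blue points are 8 genes described in the text, of which AT4G05631 lies highest above the line at a gap of 5.66 and FRO5 lies 3.91 below it.

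Photosynthesis and photorespiration accounted for 5 of the 10 genes furthest above the line. The rule for naming them took the 10 highest gaps among the 10038 genes with at least 100 gene body reads and 100 exonic reads. PSBR, a subunit of photosystem II, had 8352 gene body reads per kb and 16277 exonic reads per splice site, where the line gives 388, and so a gap of 5.39. LHCA1, an antenna protein of photosystem I, had 24363 gene body reads per kb and 20654 exonic reads per splice site, the highest exonic level of all, with a gap of 5.14. LHCA4, another antenna protein of photosystem I, had a gap of 4.73. PSBR and both antenna genes had the densest polymerase of the 10 genes, from 8352 to 25463 reads per kb. Each of the others had 1341 reads per kb or less. Of the 10 genes, the gaps of PSBR, LHCA1 and LHCA4 thus depend most on the slope of the line.

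SHM1, the mitochondrial serine hydroxymethyltransferase of photorespiration, had only 180 gene body reads per kb from 522 reads, and 2901 exonic reads per splice site over its 14 introns. Its gap was 5.02, which is 32.5-fold above the line. GAPB, a subunit of the glyceraldehyde-3-phosphate dehydrogenase of the chloroplast, had 589 reads per kb, 3252 exonic reads per splice site and a gap of 4.53. CLPC1, a chaperone of the chloroplast protein import and protease machinery, had a gap of 4.75, and AT2G41840, of the ribosomal protein S5 family, a gap of 4.82. TCTP, the translationally controlled tumor protein, had a gap of 4.63. In all 8 of these genes the intronic share, which is the percentage of intronic reads among all reads counted next to splice sites, lay between 1.32% and 6.90%, against a median of 24.1% over all genes described.

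The remaining genes of the 10 did not share that low intronic share. AT4G05631, a gene for an uncharacterized protein (chromosome 4, 2990006 to 2992618, minus strand, TAIR10), had the highest gap of all at 5.66. It had 203 gene body reads over 2313 bp, 3428 exonic reads per splice site and 3286 intronic reads per splice site. All 9 introns had about as many intronic as exonic reads, with shares from 39.7% to 57.9%. In total RNA of DMSO-treated seedlings the share was 50.05%, with 446 exonic reads per splice site. The introns listed for this gene were thus mostly unspliced in both fractions. DI19, a drought-induced zinc finger protein, had a gap of 4.38 and an intronic share of 18.99%, and this value came mainly from 1 of its 5 introns.

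The splice sites of DI19 are shown because that gene holds a retained intron among efficiently spliced ones. Each sequence gives the end of an exon, the intron's first 2 bases in capitals and the bases after them, 5' to 3' along the gene, which lies on the minus strand (TAIR10).
DI19 intron 1, 5' splice site, chr1:21074663-21074682: gatctgGTgagaaactacag
DI19 intron 2, 5' splice site, chr1:21074043-21074062: aacgcgGTattgctctctac
DI19 intron 3, 5' splice site, chr1:21073895-21073914: atgggaGTttatttaagata
DI19 intron 4, 5' splice site, chr1:21073547-21073566: agagcgGTatagattctata
DI19 intron 5, 5' splice site, chr1:21073292-21073311: aatctgGTatatatgaagct

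Intron 3 of DI19, 115 bp long, had 1926 intronic and 2187 exonic reads at its 5' splice site and 2022 and 3025 at its 3' splice site. Its intronic share was 43.1% (95% Wilson interval 42.1% to 44.1%). The shares of introns 1, 2 and 4 lay between 2.23% and 4.09%, and that of intron 5 was 14.7%. The polymerase density is common to all 5 introns, so within this gene the intronic share differed about as widely as it did among most genes.

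Under the same read limits, the 10 genes furthest below the line carried polymerase but left few reads on chromatin. FRO5, a ferric chelate reductase, had 990 gene body reads, or 363 reads per kb, and 7.79 exonic reads per splice site where the line gives 117. Its gap was -3.91, which is 14.98-fold below the line, with a rough counting error of 0.52. PLA2A, a patatin-like phospholipase, had 2480 gene body reads at 1427 reads per kb and 21.6 exonic reads per splice site, and a gap of -3.19. LAC5, a laccase, had a gap of -3.40, AGL12, a MADS-box factor, one of -3.33, and FBS1, an F-box protein, one of -3.25. The density of all 5 was above the median gene. The choice of genes favours this, since with a floor on exonic reads a very low gap needs a high expected level.

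The others were AT4G00910, annotated as an aluminum-activated malate transporter, at -3.61, AT5G66230, annotated in the chalcone-flavanone isomerase family, at -3.50, AT1G23880 at -3.46, AT3G09405, a pectin acetylesterase, at -3.41 and AT2G39855 at -3.33. Their exonic levels lay between 10.7 and 12.8 reads per splice site. In AT5G66230, introns 1 to 3 had no exonic or intronic read at either splice site, and these zeros enter its mean. Across all 10 genes the intronic share was between 26.7% and 42.3%, above the median of 24.1%. Since whole seedlings were used, a gene transcribed in few cells and a gene with little RNA in each cell cannot be told apart.

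Promoter sequences are shown for a pair of the highest and a pair of the lowest genes, since all 4 sequences hold an element of known type. Each runs from 250 bp before to 50 bp after the annotated start in TAIR10, 5' to 3' on the gene's strand. Capitals mark CACGTG (the G-box, bound by light-signalling and other bZIP and bHLH factors), TATAAA (the TATA box) and TGGGCC (the site II element), searched on both strands.
PSBR, chr1:29735766-29736065, plus strand: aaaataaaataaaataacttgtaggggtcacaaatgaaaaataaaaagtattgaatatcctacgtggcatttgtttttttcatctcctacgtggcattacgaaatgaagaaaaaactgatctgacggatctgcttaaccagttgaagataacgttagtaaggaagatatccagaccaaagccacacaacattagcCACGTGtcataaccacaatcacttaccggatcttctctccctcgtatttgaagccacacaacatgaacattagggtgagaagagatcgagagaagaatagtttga
LHCA1, chr3:20341054-20341353, minus strand: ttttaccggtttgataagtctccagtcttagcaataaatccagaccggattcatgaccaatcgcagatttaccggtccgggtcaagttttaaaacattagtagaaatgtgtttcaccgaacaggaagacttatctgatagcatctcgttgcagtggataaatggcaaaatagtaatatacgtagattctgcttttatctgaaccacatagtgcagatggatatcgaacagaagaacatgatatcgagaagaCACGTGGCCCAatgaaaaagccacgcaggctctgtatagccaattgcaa
PLA2A, chr2:11295757-11296056, minus strand: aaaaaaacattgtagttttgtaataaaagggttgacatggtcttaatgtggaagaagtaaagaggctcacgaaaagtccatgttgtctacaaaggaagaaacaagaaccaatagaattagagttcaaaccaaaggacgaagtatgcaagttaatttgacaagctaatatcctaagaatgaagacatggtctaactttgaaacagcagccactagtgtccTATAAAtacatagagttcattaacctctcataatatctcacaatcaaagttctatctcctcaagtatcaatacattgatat
AGL12, chr1:26955078-26955377, minus strand: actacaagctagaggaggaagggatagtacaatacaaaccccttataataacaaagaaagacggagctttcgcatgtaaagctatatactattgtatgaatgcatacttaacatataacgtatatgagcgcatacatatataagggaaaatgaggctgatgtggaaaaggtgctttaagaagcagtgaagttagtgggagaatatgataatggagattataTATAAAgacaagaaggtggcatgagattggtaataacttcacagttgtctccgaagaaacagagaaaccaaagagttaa

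In LHCA1 the capitals join a G-box and a site II element, read on the opposite strand, that share 1 base. Both lie after the annotated start, at bases 2 and 7 of the transcribed part, whereas the G-box of PSBR begins 55 bp before the start. The TATA box begins 31 bp before the start in PLA2A and 29 bp before it in AGL12. Among the 10 highest genes 4 promoters had a G-box and 6 a TATA box, and among the 10 lowest 1 had a G-box and 7 a TATA box. Over all genes, the site II element differed most of the motifs searched in promoters. It was in 24.2% of promoters in the highest quintile of the gap and 14.3% in the lowest, against 20.9% of the genes described and 15.5% of the 27444 promoters of protein-coding genes. The G-box was found in 12.1% of promoters in the highest quintile and in 8.61% in the lowest, against 9.99% of the genes described and 7.68% of all promoters. The TATA box went the other way, with 45.8% in the highest quintile, 52.7% in the lowest, 47.5% of the genes described and 52.1% of all. The telo-box core AAACCCT was in 13.5% and 11.98% of promoters in the highest and the lowest quintile, and the evening element core AATATCT, bound by clock factors, in 12.1% and 9.18%. A match describes the letters of the window and not a bound site.

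The gap rose with the density of the 3' end peak. This peak is the densest stretch of 50 bp that pNET-seq reads gave in a region from upstream to downstream of the PAS, and its reads lie outside the gene body. The Spearman correlation between the gap and the peak window density was 0.400, and 0.435 with exon number held. From the lowest to the highest quintile of the gap the median peak window density was 1160, 1720, 2260, 2720 and 3720 reads per kb, although the median gene body density was close, between 85.2 and 119 reads per kb. Sorted the other way, 40.7% of genes in the highest quintile of peak window density lay at least 2-fold above the line and 7.82% at least 2-fold below it, and in the lowest quintile 7.43% and 42.7%. The exonic level itself followed the peak window (correlation 0.616) more closely than the gene body (0.416), and with gene body density held its partial correlation with the peak window was 0.512. All genes described had a peak window above the gene body in the authors' test, so these values cover genes with a 3' end pause only. Within quintiles of gene body density, the correlation between exonic level and peak window density was between 0.430 in the lowest and 0.635 in the highest quintile.

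This relation depends on how the expected level is set. When the exonic level was simply divided by the gene body density, the correlation between that ratio and the peak window density was -0.0474, and with a reduced major axis line, of slope 0.80, it was 0.0732. The least squares line leaves the gap almost without relation to gene body density (correlation -0.0237), while the simple ratio falls as density rises. With gene body density held, a step added after the data were seen, the ratio gave a partial correlation of 0.450. That step nearly repeats the partial correlation of the exonic level given above and is not separate support.

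Genes at both ends show how far peak and gap can part. LHCA2, an antenna protein of photosystem I, had 64940 peak window reads per kb and a gap of 2.57. AT2G20670, a gene with a DUF506 domain, had the densest gene body of all at 44516 reads per kb and the densest peak window of all at 71780, with a gap of 2.45. Its exonic level was 4026 reads per splice site, and that of LHCA2 was 2615 at 11549 gene body reads per kb. At such densities both gaps depend strongly on the shallow slope of the line, and a steeper line would lower them. XIG, a myosin gene, had only 8 reads in its peak window, or 160 reads per kb, and still lay 2.63-fold above the line. SDG25, a histone methyltransferase gene, and NTMC2T5.2 had 8 peak window reads as well, with gaps of 1.29 and 1.38. Below the line, LBD37, a repressor in the nitrate response, had 25380 peak window reads per kb and 16926 gene body reads per kb but 146 exonic reads per splice site, 3.49-fold less than the line gives. RCI2A, a small membrane protein induced by cold, had 22900 peak window reads per kb and a gap of -1.52, and SIS had 20700 and a gap of -1.23. AT4G16920, AT1G56630 and SUS5, a sucrose synthase, were low in both, with 6 to 7 peak window reads and gaps of -1.46, -1.82 and -1.67.

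**Figure D2:**
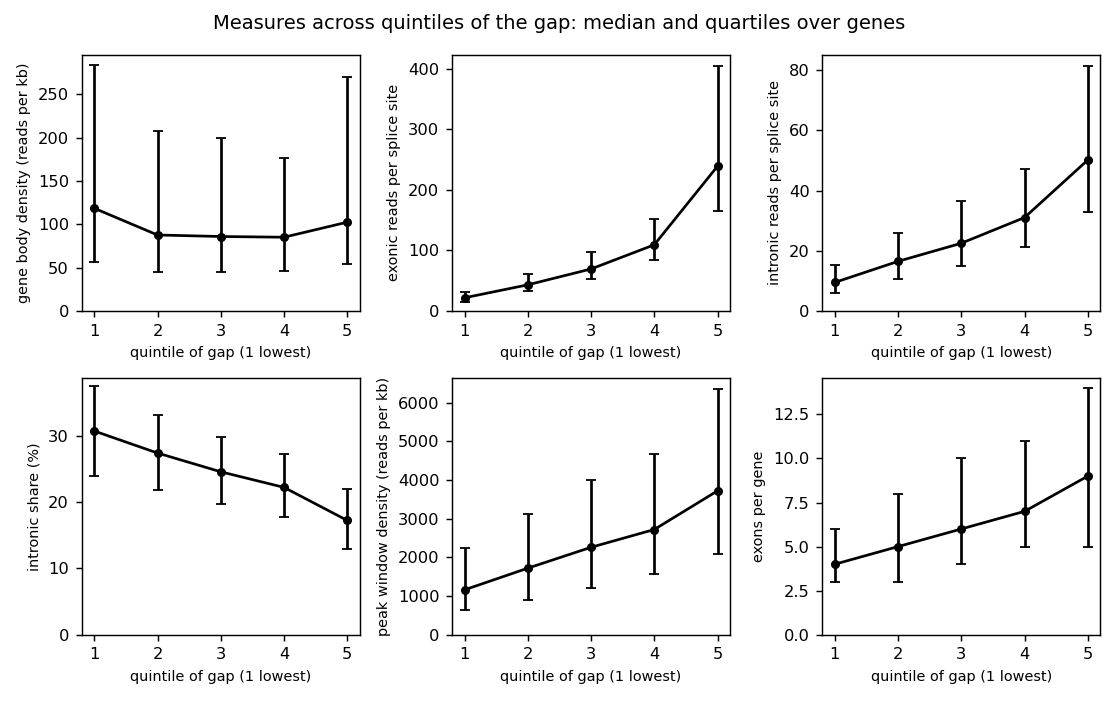
Medians (points) and quartiles (bars) of 6 measures over the genes in each quintile of the gap, from the lowest gap (1) to the highest (5), with reads per kb, reads per splice site, percent or exons on axes that start at 0. Gene body density stays between medians of 85.2 and 119 reads per kb, while the intronic share falls from a median of 30.8% to 17.3% and the peak window density and the exon number rise.

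The gap fell as the intronic share rose. The correlation between them was -0.482, and -0.429 with exon number held. The median intronic share was 30.8% in the lowest quintile of the gap, then 27.4%, 24.6% and 22.3%, and 17.3% in the highest. Among genes in the lowest quintile of intronic share, 50.4% lay at least 2-fold above the line and 9.72% below it, and among those in the highest quintile 4.12% and 46.4%. Exonic reads enter both measures, so part of this relation is built in. With the intronic share taken from the libraries labelled xrn3, which share no reads with the Col-0 libraries, the correlation was -0.473. This takes away shared counting error only. The gaps of both sets of libraries were nearly the same (correlation 0.956), so the built-in part remains.

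A high gap did not mean fewer intronic reads. The median intronic level was 9.50 reads per splice site in the lowest quintile of the gap and 50.2 in the highest, a rise by a smaller factor than that of the exonic level, from 21.8 to 239. A line of the intronic level on gene body density had a slope of 0.41, and the gaps from both lines went together across 13933 genes (correlation 0.806). The intronic level followed gene body density (correlation 0.502) more closely than the exonic level did (0.416). Only 5 of the genes described had no intronic read at all.

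Peak window density and intronic share each went with the gap when the other was held, at partial correlations of 0.404 and -0.485. The correlation between them was -0.0999. Of the 765 genes in the lowest quintile of peak window density and the highest of intronic share, 66.3% lay at least 2-fold below the line and 1.44% above it, with a median gap of -1.46. Of the 696 genes in the opposite corner, 74.4% lay at least 2-fold above and 1.44% below, with a median gap of 1.73. Where both measures were in their lowest quintile, the median gap was -0.05, and where both were in their highest it was -0.15.

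**Figure D3:**
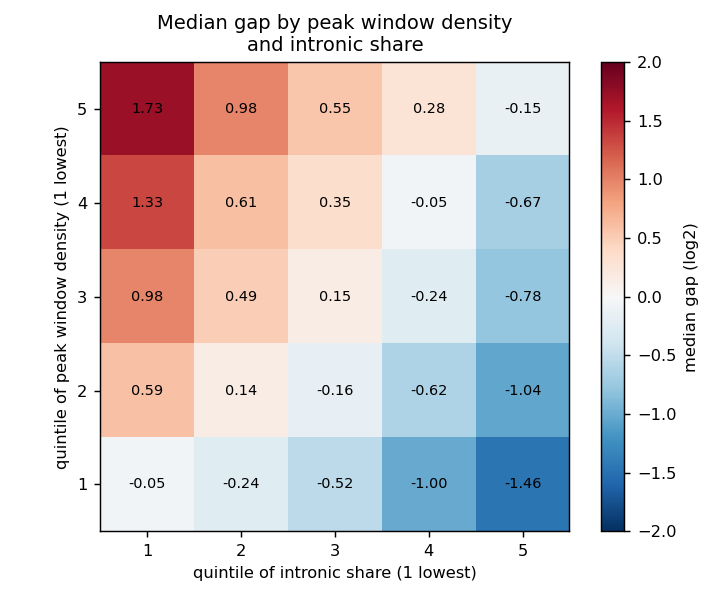
Median gap (log2) of the genes in each combination of a quintile of intronic share (x axis) and a quintile of peak window density (y axis), with the value printed in each cell. The cells run from -1.46 at low peak window density and high intronic share to 1.73 at high density and low share.

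Single genes with extreme intronic shares are shown by the splice sites of lone introns, since in a gene with 2 exons the share rests on 1 intron. Each line gives the 5' splice site and, after a slash, the 3' splice site, 5' to 3' on the gene's strand, with the first and the last 2 bases of the intron in capitals.
PRP4, chr4:18098287-18098306 and chr4:18098202-18098227, minus strand: tttcagGTatctcataactt / tgtgatattatttgttatAGgacttc
HSC70-1, chr5:556107-556126 and chr5:555791-555816, minus strand: ttttcgGTacgtgtctcgtt / tttttatttggctgttgcAGacgcta
AT5G25630, chr5:8947492-8947511 and chr5:8947677-8947702, plus strand: attaagGTaacaatatcaag / gctttgcttttttgttgcAGactaca
AT4G11570, chr4:7004407-7004426 and chr4:7004666-7004691, plus strand: tctcagGTttcagtcgaaaa / aggttttggaattgtactAGgttttg
AT5G41670, chr5:16665606-16665625 and chr5:16665538-16665563, minus strand: tttgagGTtattctctctct / gtttccatgttgttgtgtAGggcttt

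PRP4, a proline-rich cell wall protein, had 30 intronic reads against 7031 exonic reads, an intronic share of 0.425% (95% Wilson interval 0.298% to 0.606%) and a gap of 4.14. HSC70-1, a cytosolic HSP70 chaperone, had a share of 2.21% and a gap of 3.75. GUN5, the magnesium chelatase subunit of chlorophyll synthesis, had a share of 2.07% over 4 introns and a gap of 4.15. These genes pair little intronic signal with much RNA.

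AT5G25630 and AT4G11570 lay above the line as well, with gaps of 1.51 and 1.59, but intronic reads outnumbered exonic reads. The share of AT5G25630 was 51.4%, with 442 intronic reads at its 5' splice site and 55 at its 3' splice site, and that of AT4G11570 was 53.5%. In total RNA the share of AT4G11570 was still 48.0%, whereas that of AT5G25630 was 23.2%. AT2G15042, a leucine-rich repeat gene, had a share of 52.0% and a gap of 1.33.

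Below the line, AT5G41670, annotated in the 6-phosphogluconate dehydrogenase family, had a share of 54.6% on chromatin and 51.6% in total RNA, and a gap of -1.34. AT1G65845 and AT5G58660 had shares of 51.9% and 51.5%, which in total RNA were 10.2% and 21.3%. Low shares were found there too. HTA6, a histone H2A gene, had 3247 gene body reads at 6013 reads per kb, a share of 4.59% and 93.5 exonic reads per splice site, and lay 3.66-fold below the line. The peroxidase gene AT2G35380 had a share of 2.75% and a gap of -2.19, and AT5G16720 one of 5.30% and a gap of -1.19. Across all genes the letters of the 5' splice site differed little with the gap, as GTAAG opened 17.5% of 10699 introns in the lowest quintile and 15.9% of 27566 in the highest.

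Genes with more exons had more chromatin-bound RNA for their polymerase. The correlation between the gap and the exon number was 0.379, and with gene length it was 0.338. With gene length held, exon number kept a partial correlation of 0.208, and with exon number held, gene length one of 0.0997. With the exonic level taken from the last intron alone, the correlations were smaller, 0.202 with exon number and 0.191 with gene length. Genes with 2 to 3 exons had a median gap of -0.62, and 11.4% of them lay at least 2-fold above the line and 38.6% below. Genes with 11 or more exons had a median gap of 0.77, with 41.9% above and 6.92% below. The relations to peak window density and intronic share were found in each class of exon number, with correlations between 0.410 and 0.452 for the first and between -0.538 and -0.376 for the second.

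Other features differed little. Intron length (correlation -0.0380), the place of the peak window relative to the PAS (correlation -0.0280), the GC content of the gene body (correlation -0.0294) and that of the peak window (correlation 0.0131) had almost no relation to the gap. A run of 5 T was found in 12.2% of peak windows in the lowest quintile and 12.9% in the highest. In 8527 genes with at least 4 introns and enough reads, the exonic reads of the last intron over those of the first had a median of 0.767, with a correlation to the gap of -0.00525. Annotated tRNA, snoRNA, snRNA, rRNA or miRNA genes on the same strand lay inside 94 of the genes described (0.674%), inside 0.825% of the lowest quintile and 0.538% of the highest. The correlation between the gap and the 3'PI, the ratio of peak window to gene body density, was 0.371, but gene body reads enter both.

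Lists of genes from annotated names and products differed in where they lay. Of the 44 nuclear photosynthesis genes described, 38 lay at least 2-fold above the line and 3 below, against 21.9% and 22.1% of all genes. Their median gap was 2.93. Their median gene body density was 5204 reads per kb and their median exonic level 2400, against 94.9 and 73.5 over all genes. At such densities the gap depends strongly on the slope of 0.38, and no list was placed by a steeper line. These genes also combined a high median peak window density, 19940 reads per kb, with a low median intronic share, 10.6%. FNR1, which passes electrons to NADP, had 391 gene body reads per kb and 1815 exonic reads per splice site, and a gap of 3.92. RCA, the activase of Rubisco, had a gap of 3.70. The 3 genes below were PSBP-2, annotated as a photosystem II subunit, at -2.24, FD3, a ferredoxin, at -1.81 and RBCS1B, a small subunit of Rubisco, at -1.41. The sequences of light-harvesting and Rubisco copies are close to each other, and only uniquely mapped reads were kept, so values of single copies are uncertain. A G-box was found in 22 of the 44 promoters, against 7.68% of all promoters.

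Most of the tubulin, actin and chaperone genes listed lay at least 2-fold above the line as well. Over all genes described, 21.9% lay at least 2-fold above and 22.1% below. Of 21 tubulin and actin genes, 13 were at least 2-fold above and 1 below, with a median gap of 1.76. TUB6, a beta-tubulin, had 414 gene body reads per kb, 694 exonic reads per splice site and a gap of 2.50, and ACT11, an actin, had 239 reads per kb, 15.1 exonic reads and a gap of -2.72. Of 12 chaperone genes 8 lay at least 2-fold above and 3 below, with a median gap of 1.20. The 3 below were the heat-induced HSP101 at -2.01, HSP90.1 at -1.81 and HSP70 at -1.69, whereas HSC70-1, BIP1 and SHD, which work without heat, lay between 1.81 and 3.75. HSP81-2, HSP81-3 and BIP2 lay nearer to the line, at 1.11, 1.06 and 0.88. All 3 low genes had gene body densities of 41.4 to 321 reads per kb, below those of HSC70-1, BIP1 and SHD. Low density did not set the low genes apart in the whole list. The chaperone genes cpHsc70-1, cpHsc70-2 and CR88 had 177, 143 and 70.9 reads per kb and gaps of 3.23, 1.28 and 1.60.

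Of 17 circadian clock genes 9 lay at least 2-fold above and 0 below, against 21.9% and 22.1% of all genes. Their median gap was 1.40. AT3G54500, the clock coactivator LNK2, had 237 gene body reads per kb and 1345 exonic reads per splice site, and the highest gap of this list at 3.76. PRR7, a repressor of the morning loop, had a gap of 2.77. PRR7 had 793 gene body reads per kb and 1077 exonic reads per splice site. PRR5, of the same family, had 2398 gene body reads per kb and 209 exonic reads per splice site, and a gap of -0.20. The evening element core was in 8 of the 17 promoters, against 11.5% of all.

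Of 12 genes of nitrate uptake and assimilation, 6 lay at least 2-fold above and 1 below, against 21.9% and 22.1% of all genes. GLU1, the ferredoxin-dependent glutamate synthase of leaves, had only 86.0 gene body reads per kb and 1329 exonic reads per splice site over 31 introns, and a gap of 4.31, whereas the nitrate reductase NIA1 had 11100 gene body reads per kb, 615 exonic reads and a gap of 0.51. NRT1.9, a nitrate transporter, was lowest at -1.09. Polymerase and chromatin-bound RNA thus put these 3 genes in different orders.

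The Aux/IAA and JAZ lists held more genes below the line than above it. Of 19 Aux/IAA genes, repressors of the auxin response, 9 lay at least 2-fold below and 2 above, against 22.1% and 21.9% of all genes. Their median gap was -0.97 and their median intronic share 34.3%. PAP1 had 5030 gene body reads at 3122 reads per kb, 57.4 exonic reads per splice site and a gap of -2.21. IAA1 had 3757 reads per kb, 44.0 exonic reads and a gap of -2.70. IAA9 was the highest, with 645 reads per kb, 479 exonic reads, a share of 13.9% and a gap of 1.72. Of 9 JAZ repressors of the jasmonate response, 4 lay at least 2-fold below and 0 above. JAZ1 had 4166 gene body reads at 3395 reads per kb and 108 exonic reads per splice site, for a gap of -1.35, and the highest, TIFY7, lay at 0.60. JAZ1 had 2388 exonic reads per splice site in total RNA, which came from DMSO-treated seedlings.

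Of 82 NLR immune receptor genes 14 lay at least 2-fold above and 23 below, against 21.9% and 22.1% of all genes. Their median gap was -0.09. SNC1 had 883 gene body reads per kb, 1364 exonic reads per splice site and the highest gap of these at 3.06, with an intronic share of 29.9%. RPP4 and RPP5, its neighbours in a cluster of near copies, had gaps of 2.41 and 2.39, so reads of these genes may have been split or lost. The lowest with enough reads was AT4G23510 at -2.48. Of 6 PP2C phosphatases of abscisic acid signalling, 1 lay above, ABI1 at 1.13, and 1 below, HAI1 at -2.66, and PP2CA was at -0.04.

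Genes of transcription and RNA processing lay on both sides of the line. Over all genes described 21.9% lay at least 2-fold above and 22.1% below, the shares to set beside each count here. Of 30 genes of Pol II and its elongation factors 8 lay at least 2-fold above and 5 below. ELF8, a subunit of the PAF1 complex, had 21.4 gene body reads per kb, 236 exonic reads per splice site and a gap of 2.59, and NRPB1, the largest Pol II subunit, had a gap of 2.27. The small subunit NRPB7 lay at -1.43. Of 20 SR and RS splicing factors 8 lay above and 1 below, from RS31a at -0.63 among those with enough reads to SR34 at 2.48. Of 17 cleavage and polyadenylation genes 6 lay above and 1 below. The poly(A) polymerases PAPS1 and PAPS2 had gaps of -0.52 and 2.45, with 127.6 and 57.5 gene body reads per kb and 54.5 and 314 exonic reads per splice site. Of 9 autonomous flowering pathway genes 2 lay above and 1 below, with FCA at 1.48 and FPA, another RNA-binding protein of the pathway, at -1.32. FPA had 630 gene body reads per kb and FCA 50.4, but FCA had more exonic reads per splice site, 153 against 57.6. Of 60 cytosolic ribosomal protein genes, chosen by product name, 19 lay above and 7 below, from AT3G14595 at -1.86 among those with enough reads to AT5G20290 at 2.86. The product names used do not take in AT2G41840 of the ribosomal protein S5 family, whose gap of 4.82 is higher. The lists were described only by these counts and medians. Of the 70 genes named by rule, 16 overlap another annotated gene, among them PSBR, LHCA4, GLU1, AT3G54500, PRP4, RCI2A and FPA, and their reads may include some of that neighbour's. Over the 10673 genes that overlap no other gene, the correlations of the gap with peak window density, intronic share, 3'PI, exon number and gene length were 0.411, -0.476, 0.370, 0.382 and 0.345.

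**Figure D4:**
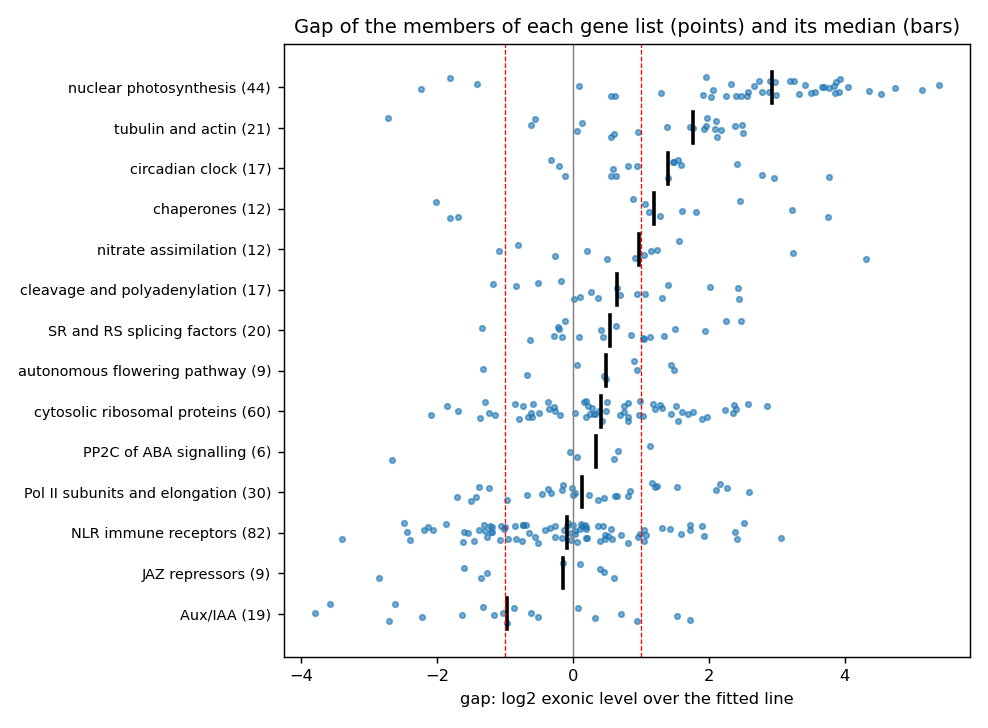
Gap (log2, x axis) of each gene in 14 lists, ordered by the list's median, with points for genes, black bars for medians and the number of genes in brackets, and dashed lines at 2-fold above and below the line. The median is 2.93 for nuclear photosynthesis at the top and -0.97 for Aux/IAA at the bottom, and most lists have genes on both sides.

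Chromatin-bound RNA above the line went with a higher level in total RNA. The exonic level of total RNA, from DMSO-treated seedlings, was available for 10552 of the genes, and the correlation between it and the gap was 0.443. From the lowest to the highest quintile of the gap its median was 41.3, 49, 60.6, 73.6 and 134 reads per splice site. Among these 10552 genes the correlation between the gap and the peak window density was 0.294, and 0.0996 with the level of total RNA held. The relation to the intronic share was -0.488 among the same genes, and -0.438 with total RNA held. How much finished RNA remained in the chromatin fraction was not tested.

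The order of genes could differ between both fractions. FBS1 had 13.4 exonic reads per splice site on chromatin, below the median of 73.5, and 626 in total RNA, above the median of 71.2. The libraries of both assays differ in depth, so only the order of genes can be compared between them. They also differ in treatment, which can change that order. A difference between fractions and a difference between treatments cannot be told apart here.

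The gap of a gene was nearly the same in the libraries labelled xrn3. Among the 13656 genes measured in both, the correlation between both gaps was 0.956, the median absolute difference was 0.23, and 83.5% of genes differed by at most 0.5. Of the genes at least 2-fold above the line in Col-0, 2711 were so in both (89.1% of those in Col-0 and 86.6% of those in xrn3), and of those below it 2312 (81.7% and 83.4%). No gene, 0 of 13656, was 2-fold above in one and 2-fold below in the other. These libraries were made by the same laboratory from the same kind of seedlings.

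Only 235 genes (1.72%) differed by more than 1. XRN3 itself had 302 gene body reads and 183 exonic reads per splice site in Col-0, and 9931 and 157 in the libraries labelled xrn3. Its gap was 1.80 in Col-0 and 0.01 in the other libraries, and its gene body reads differed far more than its exonic reads. The label thus did not come with fewer gene body reads in XRN3, and the inserted DNA of the line was not analysed here. Among the other genes that differed, NRT2.7, a nitrate transporter of seeds, had a gap of 1.15 in Col-0 and -0.41 in the other libraries, and SPX1, a sensor in phosphate signalling, had -1.73 and -0.50.

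**Figure D5:**
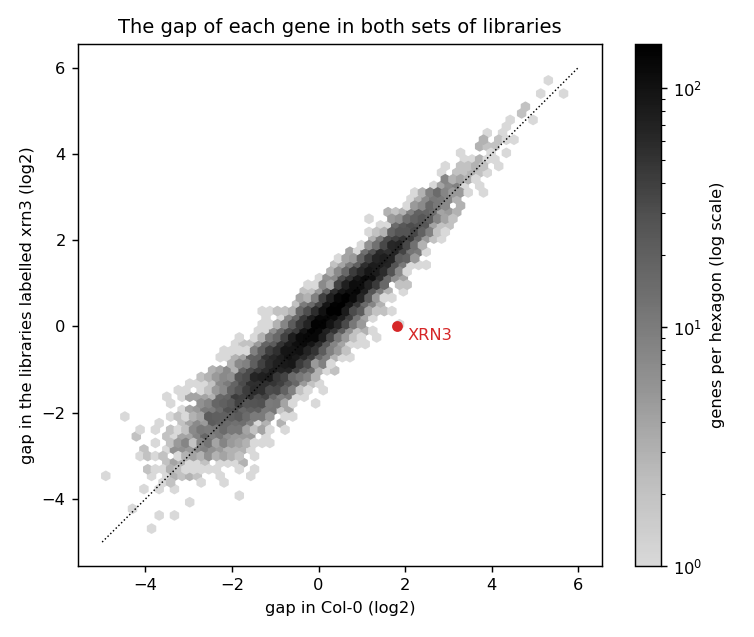
Gap (log2) of 13656 genes in Col-0 (x axis) against the gap in the libraries labelled xrn3 (y axis), with the number of genes per hexagon in grey and a dotted line of equal values. XRN3, in red, lies off the dotted line at 1.80 and 0.01, and 83.5% of genes lie within 0.5 of it.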

How the data were processed

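In the pNET-seq data, fastp trimming, HISAT2 mapping to TAIR10, a filter for unique hits and duplicate removal by molecular identifiers came first, and the last base of each nascent RNA was retained. The deposited gene body and peak window values are whole-number counts pooled by the authors over 2 libraries, for genes with a peak window above the gene body in their test. The deposited 3'PI is the authors' ratio of both densities. For both kinds of RNA library the submitters' processing notes name Trimmomatic 0.39, HISAT2 2.2.0 and SAMtools. The deposited cells hold exonic and intronic counts next to each splice site, pooled by the authors and not normalised. Whether strand was used in this counting is not given in the sources used here.

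The exonic level was fitted on gene body density by least squares on log2 values in Python 3.11.15 (numpy 2.4.6, pandas 2.3.3), which was tested on simulated data. Of the genes, 13884 matched the RefSeq annotation of TAIR10.1, from which names and sequences came, and 98.8% of the 121244 listed introns had GT and AG ends there. Correlations are Spearman's, with ranks adjusted where a variable was held. Named genes were the 10 highest and lowest gaps, the 3 highest and lowest intronic shares and peak window densities on each side of the line, the extremes of each list, and XRN3, all with at least 100 reads of both kinds. Other genes named were chosen after their values were seen. The genes described and the lists were chosen with earlier results of these data known. Alternatives changed the line, the read limits, the splice sites and introns used, overlapping genes and the fold. Not used were the tables of herboxidiene, of DMSO pNET-seq and a Col-0 table whose libraries are not known.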

Additional observations from a re-analysis of the deposited data

How the results depend on the processing

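Of 122 values under other settings, 104 stayed within 0.1 of the correlation or slope given, or within 1.5-fold of the count, 17 moved further and 1 changed sign. Some of these outcomes were fixed in advance. The correlation between gene body density and exonic level cannot change with the kind of line, and the slope of the simple ratio was set. The sign changed for the simple ratio of exonic level to gene body density, whose correlation with peak window density was -0.0474. The same ratio, with a slope set at 1, gave correlations of 0.686 with 3'PI and 0.536 with exon number. The reduced major axis line, with a slope of 0.798, gave 0.0732 with peak window density, 0.631 with 3'PI and 0.517 with exon number. Limits of 100 gene body and 100 exonic reads left 2000 genes at least 2-fold above and 2004 below, and the correlation with exon number was 0.264. With the last intron alone, the correlation was -0.370 with intronic share, 0.202 with exon number and 0.191 with gene length. A 4-fold limit left 775 genes above and 915 below. Chosen after seeing the data, the genes counted in total RNA gave a correlation of 0.294 between gap and peak window density, and 0.0996 with total RNA held. The correlation between the Col-0 gap and that of the libraries labelled xrn3 was between 0.920 and 0.959 under all 11 settings tried, and the correlation with the intronic share stayed negative in all 16. No cause of these moves was tested, apart from the slope, which sets how the gap goes with gene body density. No paired analysis was possible because the tables pool the libraries of each condition, and for the same reason no replicate could be left out. Depth limits the lowest genes, since a gene with 20 exonic reads has a wide counting error. Genes without a 3' end pause in the authors' test, without introns or under the read limits were not analysed here.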
